A study of Mus musculus with 16 samples.

Results

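The data described here are the transcript levels of 10 target genes of the tumour suppressor p53 (Cdkn1a, Mdm2, Eda2r, Ccng1, Phlda3, Bax, Trp53inp1, Gdf15, Zmat3 and Aen) in mouse striatum in which Cas9 was supplied with guide RNAs. The genes were chosen by name as established p53 targets, and all 10 matched 1 identifier each among the 48795 gene identifiers counted. RNA-seq libraries numbered 16, from 4 Crym KO and 4 Control mice, and formed the groups Crym KO IP, Control IP, Crym KO Input and Control Input, and each mouse gave 1 IP and 1 Input library. All mice were adult CAG-Cas9-EGFP animals, in which the CAG promoter drives Cas9 and EGFP in all cells, so both genotypes expressed the nuclease. All received, in the central striatum of both hemispheres, an adeno-associated virus that makes the tagged ribosomal protein Rpl22-HA under the astrocyte promoter GfaABC1D. Crym KO mice also received a virus with 3 guides against Crym, the gene of the cytosolic protein mu-crystallin. Control mice, which the labels call WT, received a virus with 1 guide against EGFP instead.

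The Control guide is directed at the EGFP of the transgene that every mouse carries. The comparison of Crym KO with Control therefore sets 3 guides to an endogenous gene against 1 guide to a transgene, and no group without a guide target was analysed here. The guides were made from the U6 promoter, which is not restricted to astrocytes, and Crym KO refers to local editing of somatic cells, so unedited cells remained in each sample. IP libraries were made from RNA pulled down with antibodies to the HA tag, and therefore enriched for ribosome-bound RNA of astrocytes, while Input libraries hold RNA of the whole dissected striatum. In either fraction, fewer cells with a transcript and less transcript per cell cannot be told apart.

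p53 is a transcription factor that is stabilised when DNA is broken, because damage kinases such as ATM keep it from the ubiquitin ligase MDM2. It then binds response elements near its targets and raises transcripts that halt the cell cycle, repair DNA, or lead to apoptosis, as well as the transcript of Mdm2, which closes a negative feedback loop. The double-strand breaks that Cas9 makes are known to switch this response on in some dividing cells, and the 10 transcripts are common readouts of it.

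The p53 response element consists of a pair of repeat units. Pairs were searched here only as directly adjacent units, so pairs with bases between the units were not counted. The repeat unit was searched in RefSeq promoter windows of GRCm38.p6, which run from 250 bases before to 50 bases after a transcription start, and 8 of the 10 genes had at least 1 window. The motif is its own reverse complement in consensus, so 1 search covered both strands. At least 1 exact repeat unit was found for 5 of these 8 genes (Cdkn1a, Ccng1, Aen, Mdm2 and Bax), in 6 of their 11 windows, and 8.36% of all 32851 windows held one. No exact unit was found in the windows of Phlda3, Gdf15 and Eda2r, which says only that these letters are not there. A pair of adjacent units with at most 1 letter off the consensus, a criterion set after the windows had been read, was present for 2 of the genes, Cdkn1a and Ccng1, and in 22 (0.0670%) of all windows. The stretches below show where the units lie at the genes whose transcripts are described next, with the matched units in capitals. The Cdkn1a stretch lies on chr17:29090879-29090978 (plus strand), the Ccng1 stretch on chr11:40755417-40755516 (minus strand), the Aen stretch on chr7:78895932-78895961 (plus strand), the Mdm2 stretch on chr10:117710925-117710954 (minus strand) and the Bax stretch on chr7:45467080-45467109 (minus strand).
Cdkn1a: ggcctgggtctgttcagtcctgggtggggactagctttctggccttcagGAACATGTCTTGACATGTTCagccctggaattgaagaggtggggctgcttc
Ccng1: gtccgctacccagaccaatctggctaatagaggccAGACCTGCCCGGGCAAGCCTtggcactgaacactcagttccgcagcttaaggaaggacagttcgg
Aen: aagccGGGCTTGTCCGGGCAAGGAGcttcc
Mdm2: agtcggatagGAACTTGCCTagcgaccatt
Bax: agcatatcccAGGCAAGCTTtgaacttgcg
The pair of units at Cdkn1a lay 51 to 32 bases upstream of the RefSeq start and the pair at Ccng1 195 to 176 bases upstream. The Aen pair, with 3 letters off the consensus, began at base 11, counting the RefSeq start as base 1. A pair with at most 3 letters off was in 1.38% of all windows. These matches are descriptions of sequence and no binding was measured.

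Total counts per library were 39421209 to 62596661, and levels are given as CPM, read counts scaled to a common library total after correction by the trimmed mean of M values. Gene positions are those of the GENCODE M21 annotation of GRCm38. The edited gene was checked first. Crym was at 68.6, 66.0, 47.9 and 76.0 CPM in the 4 Crym KO IP libraries, against 222, 125, 189 and 213 CPM in the 4 Control IP libraries. The groups did not overlap, and Crym fell to 34.9% of the Control IP level (log2 fold change -1.52, SE 0.16, limma adjusted p = 0.000514). That call was lost when the IP libraries were fitted alone (adjusted p = 0.0621). In Input, Crym had 44.3 ± 5.46 CPM in Crym KO mice and 55.8 ± 5.90 CPM in Control mice (SD, n = 4 each), with an adjusted p of 0.730. The 10 astrocyte markers, among them Slc1a2 and Gja1, were higher in IP than in Input in both genotypes (10 of 10 passed the test), with median log2 ratios of 2.22 in Crym KO and 2.10 in Control, whereas all 10 microglial markers were lower. Neuron markers were called higher in IP for 6 of 10 in Control (median 0.37) and 5 of 10 in Crym KO (0.23). In each genotype 1 was called lower. Oligodendrocyte markers were called higher for 6 of 10 in Control (median 0.43) and 1 of 10 in Crym KO (0.04). Called lower were 1 in Control and 2 in Crym KO. Of all genes, 36.7% were called higher in IP in Control and 36.2% in Crym KO. IP levels were therefore not of astrocyte RNA alone.

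None of the 10 p53 targets differed between Crym KO and Control mice at an adjusted p under 0.05, in IP or in Input, whether by limma, by edgeR's quasi-likelihood test or by DESeq2. In the same limma fit over 20645 genes, 0.0339% of genes (7) passed in IP and 0.00969% (2) in Input. At an unadjusted p under 0.05, 3 of the 10 targets passed in IP (Gdf15, Cdkn1a and Phlda3), where 7.67% of all genes did, and 1 passed in Input (Cdkn1a), where 7.07% of all genes did. In IP, 8 of the 10 log2 fold changes were below 0, as were 48.6% of all genes tested, and the median was -0.10 for the targets and 0.00 for all genes. In Input again 8 of 10 were below 0, against 50.2% of all genes, with a median of -0.14 for the targets and -0.00 for all genes. The same mice gave both fractions, so these counts are not independent. Apart from Gdf15, the 95% intervals reached no further up than a 1.13-fold higher level in Crym KO IP (Zmat3) and a 1.26-fold higher level in Crym KO Input (Eda2r).

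**Figure D1:**
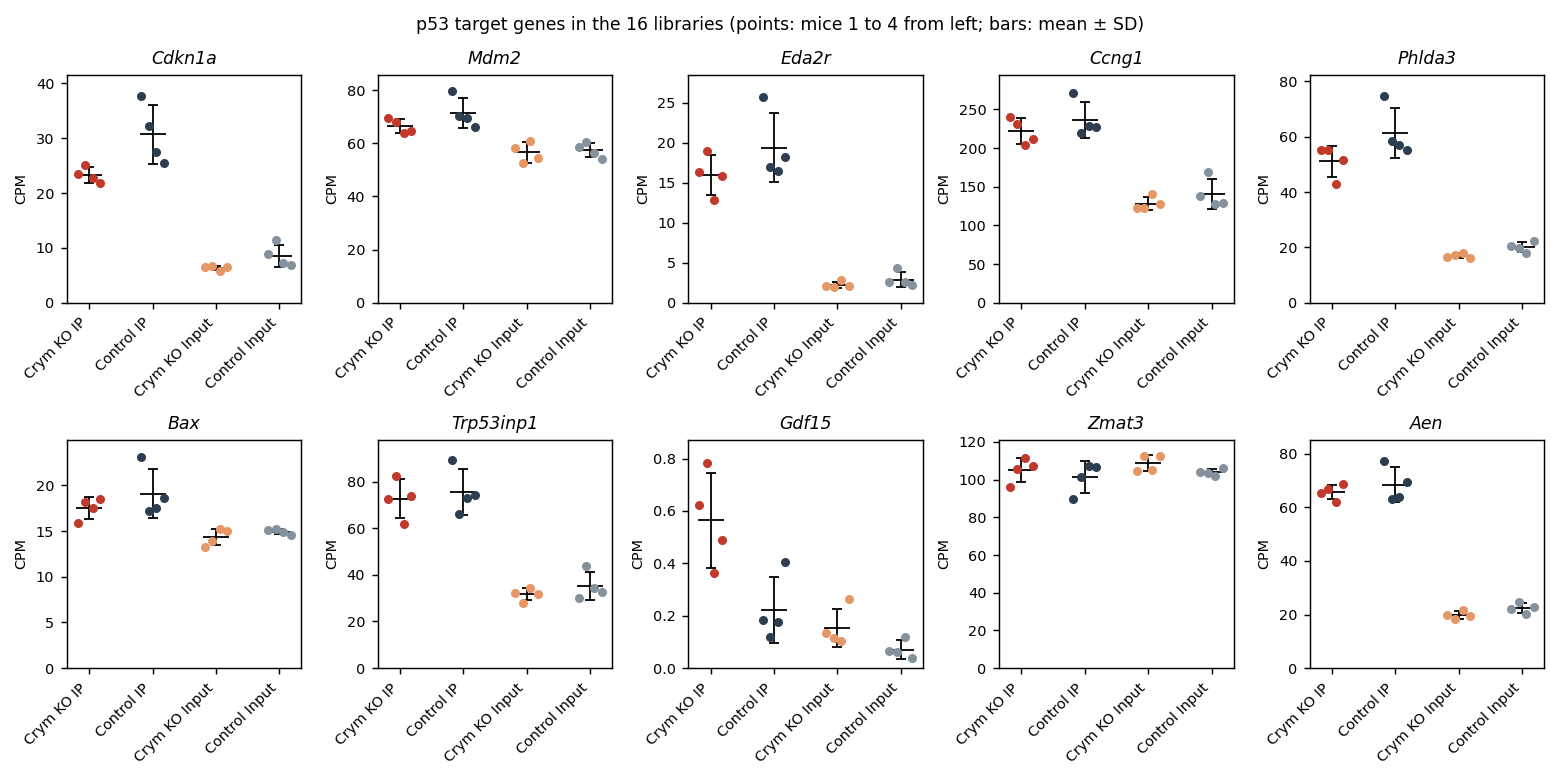
Levels of the 10 p53 targets in CPM (vertical axis, from 0) in Crym KO IP, Control IP, Crym KO Input and Control Input. Each point is a library, mice 1 to 4 from left to right, and bars are the mean and SD of 4. Control IP 1 is the highest IP library for 8 of the 10 genes.

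Cdkn1a (ENSMUSG00000023067, chr17:29090976-29100727, plus strand) encodes p21, the cyclin-dependent kinase inhibitor through which p53 arrests the cell cycle. Cdkn1a was at 23.5, 25.2, 22.7 and 21.8 CPM in Crym KO IP, against 37.7, 32.2, 27.5 and 25.4 CPM in Control IP. In Input the libraries were at 6.54, 6.74, 5.81 and 6.50 CPM in Crym KO mice and at 8.82, 11.4, 7.21 and 6.98 CPM in Control mice. All Crym KO libraries were below all Control libraries in both fractions, with the nearest neighbours 25.2 and 25.4 CPM in IP. The log2 fold change was -0.39 in IP (SE 0.11, 95% interval -0.62 to -0.15) and -0.39 in Input (SE 0.18, 95% interval -0.76 to -0.01), which is 76.5% of the Control level in each. The adjusted p was 0.460 in IP and 0.693 in Input. A two-sided exact permutation test of this gene alone gave p = 0.0286 in each fraction, the smallest that 4 libraries against 4 can give, and 20 such tests were made over the 10 targets. Reads of Cdkn1a could include those of an antisense transcript that shares exon bases with it, since the use of strand in counting is not stated.

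Phlda3 (ENSMUSG00000041801, chr1:135766119-135769136, plus strand), which encodes an inhibitor of the kinase AKT at the membrane, showed the same pattern with a smaller difference. Its levels were 55.1, 55.1, 43.1 and 51.4 CPM in Crym KO IP, against 74.8, 58.4, 56.9 and 55.4 CPM in Control IP. In Input they were 16.7, 17.2, 18.1 and 16.04 CPM in Crym KO mice, against 20.5, 19.9, 18.1 and 22.5 CPM in Control mice. The libraries of the 2 genotypes did not overlap in either fraction, but in both the nearest neighbours were almost level. In IP the log2 fold change was -0.26 (SE 0.09, adjusted p = 0.527), in Input -0.25 (SE 0.12, adjusted p = 0.710). The exact permutation p was 0.0286 in each fraction. Cdkn1a and Phlda3 were the only 2 of the 10 targets whose libraries did not overlap. Across all genes tested, 2.73% did not overlap in IP and 5.67% did not overlap in Input, in either direction.

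Gdf15 (ENSMUSG00000038508, chr8:70629393-70632456, minus strand), a secreted cytokine that rises in many kinds of cell stress, was the target with the largest positive difference and the lowest level. It had 32, 43, 21 and 28 reads in Crym KO IP, against 10, 7, 10 and 20 reads in Control IP. In CPM these were 0.624, 0.785, 0.362 and 0.490 in Crym KO IP and 0.184, 0.119, 0.176 and 0.407 in Control IP. Of the Control libraries only number 4 reached into the Crym KO range. In Input it had 7, 6, 5 and 11 reads in Crym KO mice, against 3, 3, 7 and 2 reads in Control mice. The log2 fold change was 1.42 in IP (SE 0.35, 95% interval 0.68 to 2.165, adjusted p = 0.345) and 1.00 in Input (SE 0.54, 95% interval -0.13 to 2.14, adjusted p = 0.739). Summed over libraries, the depth-corrected ratio was 2.62 in IP (124 and 47 reads, 95% exact interval 1.86 to 3.74) and 2.07 in Input (29 and 15 reads, 1.08 to 4.16), where the intervals cover counting error only. The exact permutation test gave p = 0.0571 in IP and p = 0.0857 in Input. Gdf15 ranked as number 53 of 20645 genes by p in IP, the first of the 10 targets, followed by Cdkn1a at 118 and Phlda3 at 422. It met the low-count filter in all Crym KO IP libraries but in too few of the others. Gdf15 thus entered the fit through the group where it was highest, and its rank and p are not independent of that selection. With no filter its log2 fold change in IP was 1.42 (limma adjusted p = 0.316).

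**Figure D2:**
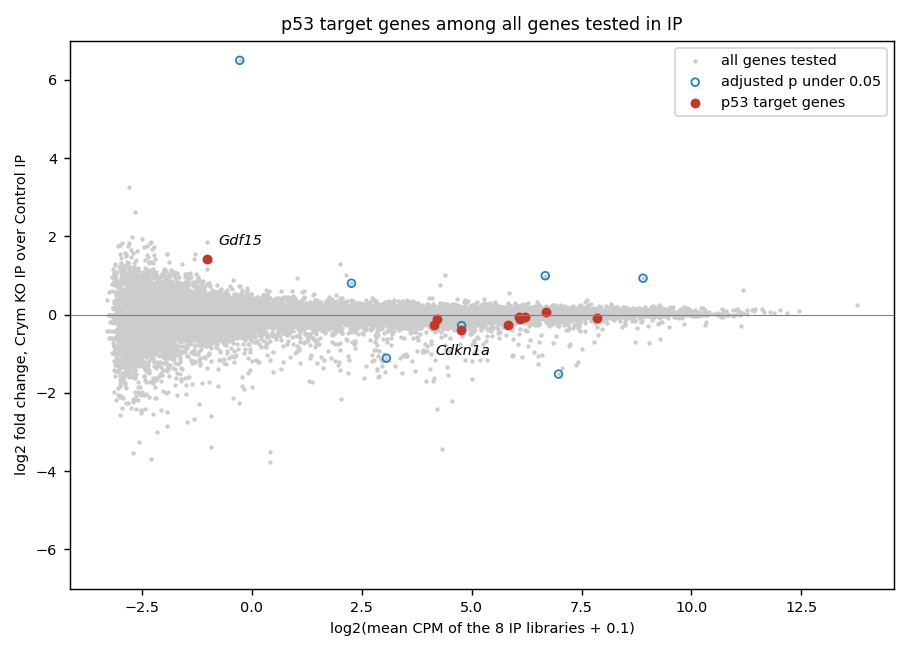
Log2 fold change of Crym KO IP over Control IP (vertical axis) against the log2 of the mean CPM of the 8 IP libraries plus 0.1 (horizontal axis) for 20645 genes. The 10 p53 targets are red and the 7 genes with an adjusted p under 0.05 are ringed; Gdf15 (1.42) stands to the left among low genes and Cdkn1a (-0.39) near the middle, and no target is ringed.

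Eda2r (ENSMUSG00000034457, chrX:97333840-97377216, minus strand) encodes a receptor of the tumour necrosis factor family. It was at 16.3, 19.0, 12.9 and 15.9 CPM in Crym KO IP, against 25.7, 17.0, 16.5 and 18.2 CPM in Control IP. The groups overlapped, and the highest value was again that of Control IP 1. The log2 fold change was -0.26 (SE 0.14, adjusted p = 0.678) in IP and -0.32 (SE 0.31, adjusted p = 0.872) in Input, where levels were 2.26 ± 0.392 CPM in Crym KO mice and 2.90 ± 0.958 CPM in Control mice (SD, n = 4 each).

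The feedback gene Mdm2 (ENSMUSG00000020184, chr10:117688875-117710758, minus strand) showed a small difference. It was at 69.7, 67.9, 63.8 and 64.8 CPM in Crym KO IP, against 79.6, 70.4, 69.5 and 66.2 CPM in Control IP (log2 fold change -0.10, 95% interval -0.22 to 0.02). In Input it averaged 56.5 ± 3.83 CPM in Crym KO mice and 57.4 ± 2.76 CPM in Control mice (SD, n = 4 each), and the log2 fold change of -0.02 had a 95% interval of -0.15 to 0.10. Ccng1 (ENSMUSG00000020326, chr11:40748552-40755311, minus strand), which encodes cyclin G1 and was the most abundant of the targets, was at 240, 232, 203 and 212 CPM in Crym KO IP, against 271, 219, 229 and 228 CPM in Control IP. The groups overlapped in both fractions, with a log2 fold change of -0.09 (95% interval -0.27 to 0.09) in IP and -0.13 (95% interval -0.31 to 0.05) in Input.

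The pro-apoptotic and nuclear members differed as little. Bax (ENSMUSG00000003873, chr7:45461697-45466898, minus strand), which permeabilises the outer mitochondrial membrane and shares exon bases with Gm45808, had 17.5 ± 1.17 CPM in Crym KO IP and 19.1 ± 2.71 CPM in Control IP (SD, n = 4 each). Trp53inp1 (ENSMUSG00000028211, chr4:11156431-11174379, plus strand), a stress-induced partner of p53, had 72.7 ± 8.37 CPM in Crym KO IP and 75.6 ± 9.80 CPM in Control IP. Aen (ENSMUSG00000030609, chr7:78895854-78911209, plus strand), an apoptosis-enhancing nuclease, had 65.7 ± 2.73 CPM in Crym KO IP and 68.5 ± 6.63 CPM in Control IP. For these 3 genes the libraries of the 2 genotypes overlapped in both fractions and the log2 fold changes ran from -0.17 to -0.06. The lowest was that of Aen in Input, where levels were 19.9, 18.3, 21.8 and 19.5 CPM in Crym KO mice and 22.1, 24.5, 20.1 and 22.7 CPM in Control mice (adjusted p = 0.722). Zmat3 (ENSMUSG00000027663, chr3:32334792-32366014, minus strand), an RNA-binding zinc finger protein that acts on splicing, was positive, with 105 ± 6.53 CPM in Crym KO IP and 101 ± 8.32 CPM in Control IP, and log2 fold changes of 0.06 in IP and 0.07 in Input.

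**Figure D3:**
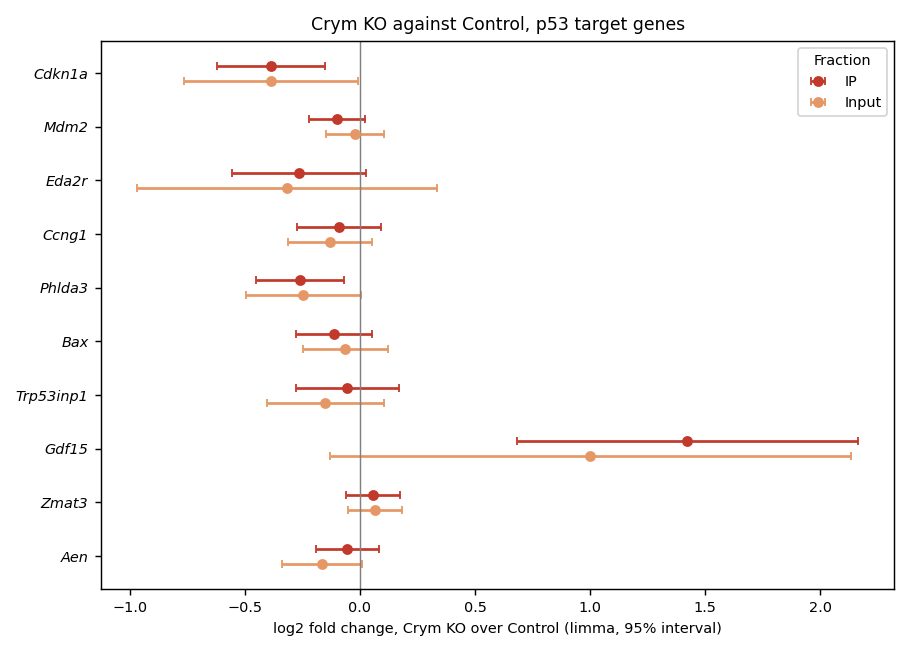
Log2 fold changes of Crym KO over Control with 95% limma intervals for the 10 p53 targets (horizontal axis), in IP (red) and Input (orange). Gdf15 lies at 1.42 in IP and 1.00 in Input with wide intervals.

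Trp53, the gene of p53 itself, is regulated mainly at the level of its protein. It was at 6.27 ± 0.783 CPM in Crym KO IP and 6.82 ± 0.525 CPM in Control IP, and at 5.49 ± 0.323 CPM in Crym KO Input and 5.47 ± 0.586 CPM in Control Input (SD, n = 4 each). The log2 fold change was -0.12 in IP and 0.01 in Input. The difference between the genotype effect in IP and that in Input was called for 0% of genes. None of the 10 targets reached an unadjusted p under 0.05 for it, where only 704 of the 20645 genes tested did. Their differences of effects ran from -0.08 for Mdm2 to 0.42 for Gdf15.

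Single libraries stood apart from the others. Control IP 1 was the highest of the 8 IP libraries for 8 of the 10 targets and lay a median of 0.26 above the mean of the 8 on the log2 scale, while Crym KO IP 3 was the lowest for 6 and lay -0.14 from it. In Input, Control Input 2 was the highest for 6 of 10, with a median of 0.16 above the mean. Without Control IP 1 the median of the 10 log2 fold changes in IP was -0.02, against -0.10 with it, and 7 of 10 were below 0. The same omission left Cdkn1a at -0.28 (adjusted p = 0.560), Phlda3 at -0.16 and Eda2r at -0.12, and Gdf15 at 1.40. Without Crym KO IP 3, Phlda3 was at -0.18 and Eda2r at -0.16. Without Control Input 2 the Input median was -0.05, with Cdkn1a at -0.24 and Eda2r at -0.12. Without Control IP 4, the Control library with most Gdf15, Gdf15 was at 1.73 (adjusted p = 0.0728) and Cdkn1a at -0.47 (adjusted p = 0.0964). With the replicate number as a block, Cdkn1a had an adjusted p of 0.0837 in IP and 43 genes of all passed there. No target passed in any of the fits that kept it. Gdf15 was left out with a filter of at least 1 CPM in 4 libraries and when the Input groups were fitted alone.

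**Figure D4:**
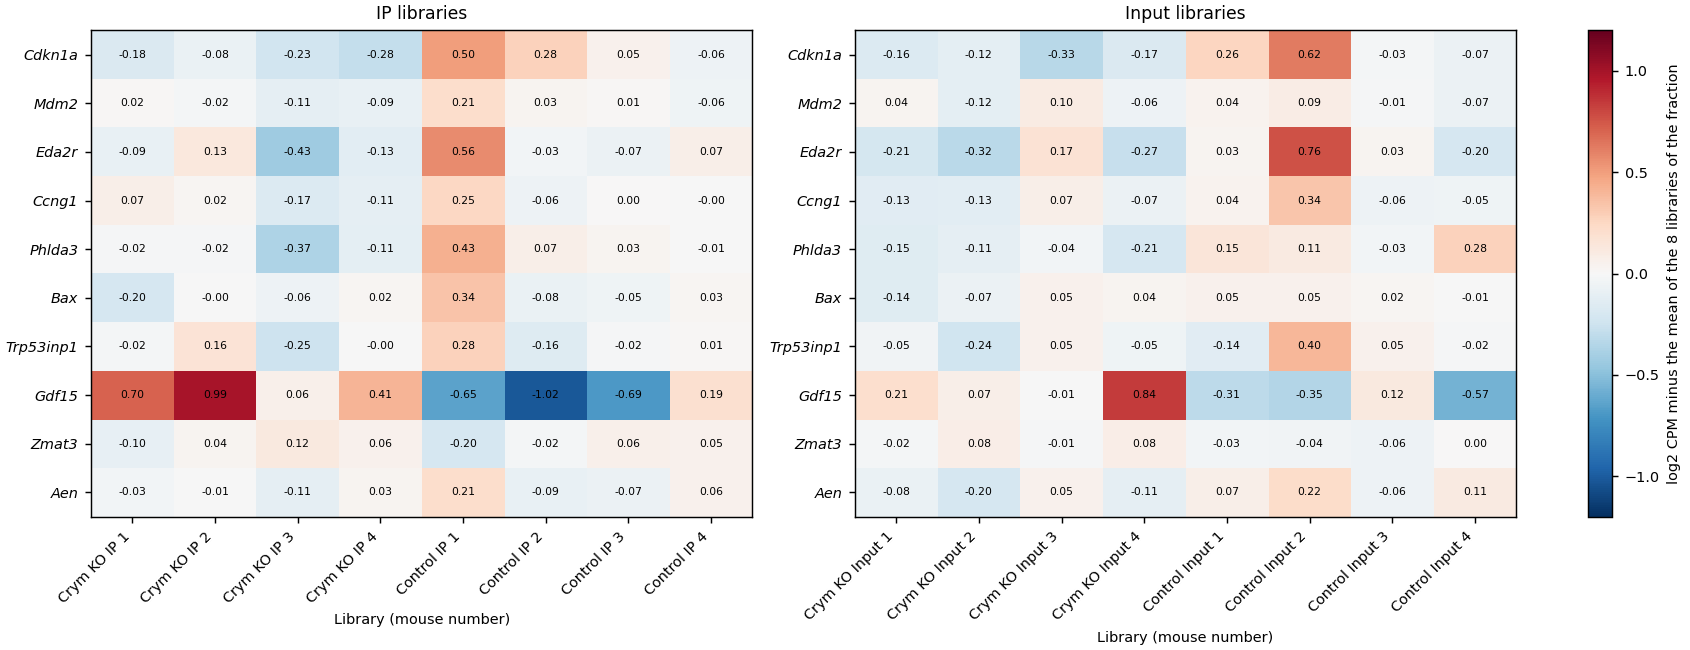
Log2 CPM (plus 0.1) of each p53 target minus its mean over the 8 libraries of the fraction, for IP (left) and Input (right), with Crym KO libraries left of Control libraries. Red is above and blue below the mean; the columns of Control IP 1 and Control Input 2 are mostly red and that of Crym KO IP 3 mostly blue.

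Sums of other gene lists were highest or lowest in these libraries in part only. The 12 type I interferon genes summed to 204 to 656 CPM in Crym KO IP, against 249 to 1336 CPM in Control IP. The highest was again Control IP 1, and the lowest was Crym KO IP 4. In Input they summed highest in Control Input 2, at 249 CPM. They were at a median log2 fold change of -0.90 in IP and -0.94 in Input, with 0 of 12 passing by limma and 3 in IP and 0 in Input at an unadjusted p under 0.05. The smallest p in IP were those of Xaf1 (-0.81), Oas1a (-1.32), Stat2 (-0.53) and Rtp4 (-0.90), and those in Input included Ifit3 (-1.03), Irf7 (-0.98) and Ifit1 (-1.05). The 12 glucocorticoid response genes summed to 980 to 1103 CPM in Crym KO IP, against 1080 to 1315 CPM in Control IP, with Control IP 1 highest. In Input they too summed highest in Control Input 2, at 895 CPM. Their median was -0.18 in IP and -0.13 in Input, with 0 of 12 passing by limma and 7 in IP and 5 in Input at an unadjusted p under 0.05. The 10 oligodendrocyte markers summed to 3838 to 6001 CPM in Crym KO IP, against 5071 to 7572 CPM in Control IP, with Control IP 1 highest and Crym KO IP 3 lowest. All 10 of them were below 0 in IP (median -0.35), while the median in Input was 0.02, and none had 0 counts over a whole group. At an unadjusted p under 0.05, which 7.67% of all genes reached in IP, were 8 of these 10 markers in IP and 0 in Input. By limma 0 of the 10 markers passed in either fraction. In Input their sum was lowest in Control Input 2, at 4862 CPM, against 5198 to 6062 CPM in the other Control Input libraries. The 10 astrocyte markers were above 0 in IP for 9 of 10 (median log2 fold change 0.12), and summed to 25650 to 29530 CPM in Crym KO IP, against 19470 to 26860 CPM in Control IP, with Control IP 2 lowest. In Input 4 of 10 were above 0 (median -0.03). In Control Input 4 the ependymal and choroid plexus markers summed to 652 CPM, against 36.1 to 40.0 CPM in the other Control Input libraries. The part of these genes in the values of the p53 targets was not tested.

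Of 24 further p53 targets, 0 passed the limma test in either fraction, with 4 at an unadjusted p under 0.05 in IP and 2 in Input. Of the 24, 16 were below 0 in IP (median log2 fold change -0.10) and 14 in Input (median -0.01). The 4 with the smallest p in IP were Pidd1, at 1.60 ± 0.175 CPM in Crym KO IP and 2.44 ± 0.287 CPM in Control IP (log2 fold change -0.60, adjusted p = 0.268), Gtse1 (-0.42), Polk (-0.20) and Sesn2 (-0.17). In Input they were Btg2 (0.16), Sesn2 (-0.19), Xpc (0.11) and Fas (-0.61). Sesn2, an inhibitor of mTORC1 signalling, was thus among the 4 in both fractions, with adjusted p of 0.570 in IP and 0.699 in Input. PIDD1 is a death-domain protein that p53 induces.

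Among the 16 regulators of p53 and sensors of DNA damage, 7 were above 0 in IP and 14 in Input. Of the 16, 0 passed in either fraction by limma (1 in IP and 3 in Input at an unadjusted p under 0.05), with medians of -0.00 in IP and 0.05 in Input, and the smallest p belonged to Chek1, the checkpoint kinase, in IP (log2 fold change 0.44, adjusted p = 0.635, 1.11 ± 0.190 CPM in Crym KO IP and 0.822 ± 0.196 CPM in Control IP) and to Atm in Input (0.16, adjusted p = 0.652). The next in IP were Nbn (-0.07), Trp53bp1 (-0.05) and Chek2 (-0.31), and in Input Rad50 (0.13), Ppm1d (0.13) and Atr (0.08). Of the 19 genes of double-strand break repair 0 passed (0 in IP and 1 in Input at an unadjusted p under 0.05), the medians were 0.03 in both fractions, and the fold changes in IP ran from -0.05 to 0.23. The smallest p in IP was that of Rnf168 (0.05), followed by Xrcc4 (0.07), Xrcc1 (-0.05) and Rad52 (0.07), and in Input that of Brca2 (0.20), followed by Prkdc (0.11), Brca1 (0.22) and Xrcc4 (0.15).

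Apoptosis genes outside the 10 targets showed no call either (0 of 14 by limma in each fraction, with 3 in IP and 2 in Input at an unadjusted p under 0.05). Those with small p in IP included Bcl2l11 (log2 fold change 0.31), Bcl2l1 (-0.10) and Xiap (0.07), and in Input Bcl2l11 (-0.18), Bcl2l1 (-0.10) and Bcl2 (-0.06). Because Gdf15 is also a target of the integrated stress response, the genes of that response were read beside it. Of 15, 14 were tested and 0 passed (2 in IP and 0 in Input at an unadjusted p under 0.05). Of these, 12 of the 14 were above 0 in IP (median 0.09) and 2 of the 14 in Input (median -0.07). Trib3, a pseudokinase induced by ATF4, was at 0.852 ± 0.249 CPM in Crym KO IP and 0.441 ± 0.0574 CPM in Control IP (log2 fold change 0.89, adjusted p = 0.460). The others with the smallest p in IP were Shmt2 (0.24, adjusted p = 0.284), Atf4 (0.14) and Ppp1r15a (0.12), and in Input Cebpb (-0.34), Chac1 (-0.16), Mthfd2 (-0.12) and Shmt2 (-0.08). Among glucocorticoid response genes those with the smallest p in both fractions were Sgk1, Ddit4, Nfkbia and Tsc22d3, where Sgk1, a kinase induced by glucocorticoids, was at 99.9 ± 17.2 CPM in Crym KO IP and 240 ± 74.2 CPM in Control IP (log2 fold change -1.22, adjusted p = 0.0610).

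In each genotype 9 of 10 targets were higher in IP than in Input by the limma test, where 36.2% of all genes were in Crym KO and 36.7% in Control, and the median log2 ratio was 1.39 in Crym KO and 1.27 in Control. With scaling by library size alone, 7 of 10 targets were called higher in each genotype, where 24.5% of all genes were in Crym KO and 24.8% in Control. The median log2 ratio of all genes was then -0.21 in Crym KO and -0.22 in Control, against -0.02 in each with the scaling used elsewhere. With upper quartile scaling 7 of 10 targets were higher in Crym KO and 9 of 10 in Control, where 26.1% of all genes were in Crym KO and 26.8% in Control. Eda2r was highest, at 7.05-fold in Crym KO (log2 ratio 2.82, SE 0.25) and 6.80-fold in Control (2.76, SE 0.22). Its log2 ratios in single mice were 2.87, 3.19, 2.14 and 2.89 in Crym KO mice and 3.28, 1.95, 2.64 and 3.01 in Control mice. The ratios of the genotypes overlapped, and mouse 3 was the lowest of the Crym KO mice and mouse 2 the lowest of the Control mice.

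Cdkn1a was at 3.63-fold in Crym KO and 3.64-fold in Control, and Aen at 3.31-fold in Crym KO and 3.06-fold in Control. Phlda3 was 2.99-fold higher in IP in Crym KO mice and 3.02-fold in Control mice, and Trp53inp1 2.29-fold in Crym KO and 2.15-fold in Control. Ccng1 was 1.73-fold higher in Crym KO and 1.68-fold in Control. All targets except Zmat3 were higher in IP than in Input in 8 of 8 mice, each with a two-sided exact sign-flip permutation p of 0.00781, the smallest that 8 mice can give. The share of all genes higher in 8 of 8 mice was not computed. This test was made only with the scaling used elsewhere, under which the log2 ratio of Mdm2 in Crym KO mouse 3 was only 0.07. The ratios of single mice overlapped between Cdkn1a and Aen and between Aen and Phlda3 in each genotype.

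Gdf15 was 3.65-fold higher in IP in Crym KO mice (log2 ratio 1.87, SE 0.39) and 2.73-fold in Control mice (1.45, SE 0.51), with Input levels of at most 0.263 CPM. By this limma ratio, Gdf15 in Crym KO lay next to Cdkn1a, with a wider error. In Control the limma call of Gdf15 was lost without Control Input 4, which held 2 reads (log2 ratio 1.204, adjusted p = 0.0591). The ratios of single mice, taken on log2(CPM + 0.1), averaged 1.39 for Gdf15 and 1.85 for Cdkn1a in Crym KO. For Gdf15 in Control they averaged 0.87. The added 0.1 is of the size of the Input levels of Gdf15 and draws its ratios towards 0. Mdm2 and Bax were only slightly higher in IP. Mdm2 was at a log2 ratio of 0.24 in Crym KO and 0.31 in Control, and Bax at 0.29 in Crym KO and 0.34 in Control. Zmat3 was the exception, with log2 ratios of -0.05 in Crym KO (adjusted p = 0.434) and -0.04 in Control (adjusted p = 0.535), and higher in IP in 3 of 8 mice (exact sign-flip permutation p = 0.258). The 3 genes nearest to 0 depended on the scaling. With scaling by library size, the log2 ratio of Mdm2 was 0.04 in Crym KO and 0.12 in Control and that of Bax 0.10 in Crym KO and 0.15 in Control, none past the test, and Zmat3 passed as lower in IP (-0.24 in Crym KO and -0.23 in Control), close to the median of all genes under that scaling.

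**Figure D5:**
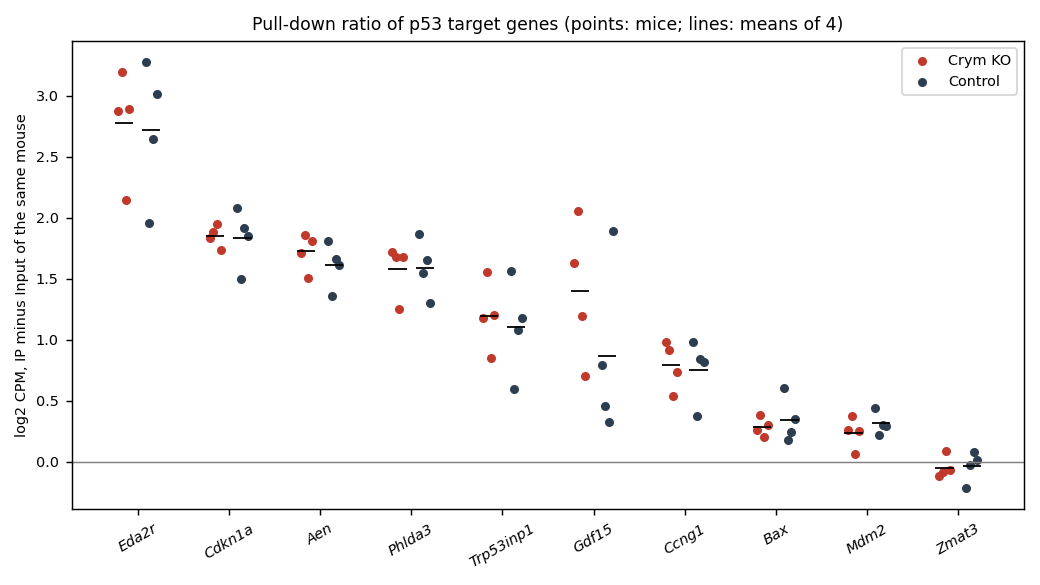
Log2 CPM (plus 0.1) in IP minus that in Input of the same mouse for the 10 p53 targets, in Crym KO (red) and Control (dark) mice. Points are mice and lines the means of 4; Eda2r is highest, Mdm2, Bax and Zmat3 lie nearest to 0, and the genotypes overlap for every gene.

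Compared per kilobase of exon, so that genes could be set side by side, Ccng1 was the highest target in IP, at 63.2 CPM per kilobase in Crym KO and 67.4 in Control. Phlda3 came next at 32.8 in Crym KO IP and 39.4 in Control IP. A middle group held Mdm2 (13.1 in Crym KO IP and 14.05 in Control IP), Aen (11.3 in Crym KO IP and 11.8 in Control IP), Trp53inp1 (11.2 in Crym KO IP and 11.7 in Control IP) and Bax (11.1 in Crym KO IP and 12.1 in Control IP), in which neighbours from Aen to Bax differed by less than the spread of libraries. Zmat3 stood at 9.19 in Crym KO IP and 8.86 in Control IP. Cdkn1a was lower at 6.56 CPM per kilobase in Crym KO IP and 8.64 in Control IP, followed by Eda2r at 2.72 in Crym KO IP and 3.28 in Control IP. Gdf15 was last, at 0.305 in Crym KO IP and 0.120 in Control IP. The coefficient of variation over the 4 libraries was lowest for Mdm2 (4.11%) and Aen (4.15%) in Crym KO IP, and highest for Gdf15 (32.1% in Crym KO IP and 57.4% in Control IP).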

How the data were processed

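The 10 targets, the other gene lists and the tests were chosen with earlier results of these data known. Groups and replicate numbers came from the labels. The authors deposited 1 table of whole-number read counts per gene for 16 libraries; their methods describe depletion of ribosomal RNA, paired-end sequencing in 1 pool, alignment with STAR to mm10 (GRCm38) and counting of uniquely placed reads with HTSeq, and the submitters' processing notes name bcl2fastq 2.17. A RefSeq gene model is named although identifiers are Ensembl, and the strand setting is not given in the sources used here. Of 48795 identifiers, 48435 matched GENCODE M21. Uniquely placed reads leave near-identical copies undercounted.

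Counts were filtered with filterByExpr (20645 genes), scaled by TMM and fitted with limma-voom (limma 3.58.1, edgeR 4.0.16, R 4.3.3) over the 4 groups, with Benjamini-Hochberg adjustment over all genes and a threshold of 0.05. On simulated data for Crym KO IP over Control IP (20421 genes), 92% of genes changed 2-fold and 75% of genes changed 1.5-fold were recovered, with 15 false calls. Changes were planted in 100 genes of each size, all with a higher mean count than Gdf15, and no shift shared by a library was planted. More genes were changed there than passed in the real fit, which eases the adjusted threshold. The shares therefore do not give the power for the 10 targets. Single targets were also compared by exact two-sided permutation of mean log2(CPM + 0.1), 4 against 4, and by sign flips over 8 mice. The named genes were the 10 targets, Crym, Trp53 and, from each pathway list, the 4 genes with the smallest p in each genotype comparison. Some genes that this rule names are not reported here. IP and Input of 1 number came from the same mouse. Across genotypes, same-number deviations from the group means correlated at 0.163 to 0.312 in IP (above 0.1 in 4 of 4 pairs) and at 0.0646 to 0.195 in Input (2 of 4). Equal numbers were also of equal sex by Xist and Ddx3y, and over autosomal genes 3 of 4 IP pairs were above 0.1. No replicates were identical, and all differed by more than sampling noise (chi-square per degree of freedom 6.31 to 74.9). That each mouse is a separate animal follows from its number in the labels. Alternatives were edgeR's quasi-likelihood test, DESeq2 1.42.0, other scalings, filters, samples, covariates and pseudocounts.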

Additional observations from a re-analysis of the deposited data

Results flagged for a closer look

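Of 48 groups of 4 libraries tested (the 10 p53 targets, Trp53 and Crym in 4 groups), 1 had a library far from the rest by Dixon's criterion, where chance gives about 1 in 20. It was Crym in Crym KO Input, where replicate 1 had 52.5 CPM, against 41.0, 42.4 and 41.4 CPM in the other 3 libraries, with a gap of 0.872 of the range on the log2(CPM + 0.1) scale. No p53 target had such a library.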

How the results depend on the processing

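Of 676 values of the 10 targets for the genotype comparisons and their difference between fractions under alternative settings, 0 passed the threshold. Gdf15 gave no value with at least 1 CPM in 4 libraries or with the Input groups alone. Genes passing in IP between genotypes numbered 68 with DESeq2, 2 with the IP groups alone, 43 with a block for the replicate number, 15 with sex as a term and 61 without Control mouse 4, against 7. In Input they numbered 47 with DESeq2, 7 with no filter, 1 with at least 1 CPM in 4 libraries, 0 with the Input groups alone, 15 with the replicate block and 1 without Control mouse 4, against 2. For the difference of effects they numbered 2 with DESeq2 and 1 without Control mouse 4, against 0. Leaving out 1 library gave 6 to 36 genes in IP, 0 to 3 in Input and 0 to 1 for the difference, and 0 targets each time. For IP over Input it gave 14826 to 15330 genes in Crym KO and 15008 to 15428 in Control, with 9 targets in Crym KO and 8 to 9 in Control. The IP and Input calls of Mdm2, Bax and Zmat3 depended on scaling: with upper quartile scaling Mdm2 (0.07) and Bax (0.13) missed the threshold in Crym KO, and Zmat3 passed as lower in Crym KO (-0.21) and Control (-0.20). Without both libraries of Control mouse 4, Gdf15 in Control was at 0.90 (adjusted p = 0.138). The replicate block changed no call of a target. Same-number deviations correlated above 0.1 in each IP pair but not in each Input pair. Equal numbers were also of equal sex and pairs of unequal number were not compared, so this check cannot tell replicate number from sex. Why these counts differ was not tested. The low counts of Gdf15 limit its precision more than that of the other targets.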
